A study of Mus musculus with 15 samples.

Results

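Regulatory T (Treg) cells are known for restraining other immune cells, yet once their antigen receptor is engaged they also transcribe ligands of the tumour necrosis factor (TNF) superfamily. The 8 ligand genes described here, Tnf, Lta, Ltb, Tnfsf8, Tnfsf11, Tnfsf14, Fasl and Cd40lg, were chosen by name from the 30949 genes listed both with and without stimulation, and their rows were found through the Ensembl gene identifier. The choice was made with earlier results of these data known. All 8 passed the filter on low values, as did 29989 genes in all. In the 15 libraries of the series, Tnf, Lta, Tnfsf11 and Tnfsf14 passed the test as higher with antibody-coated beads in DOCK8-deficient and in wild-type Treg cells. Tnfsf8 passed the test in the DOCK8-deficient cells. Tnfsf14 lay close to the threshold in both genotypes and lost its call under most alternative settings. Only Tnf kept its call under all of them in both genotypes. None of the 8 passed the test between DOCK8-deficient and wild-type cells, with or without beads.

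Every library came from female C57BL/6 mice that were Foxp3 YFP-Cre/+ and Dock8 flox/flox; the ages of the mice are not given. Cre is expressed from the Foxp3 gene on the X chromosome, so such a heterozygous female holds Treg cells that express YFP-Cre beside Treg cells that do not, and cells of all 4 groups carry the floxed Dock8 alleles. YFP+ cells are called KO here and YFP- cells WT, after the genotype in the labels. Spleen and lymph node cells were sorted as CD25+CD39+, with CD4+ in the study's design and CD3+ in the growth protocol, and kept in medium for 16 h. The groups were KO with beads (n = 2), WT with beads (n = 3), KO unstimulated (n = 6) and WT unstimulated (n = 4), and the beads carried anti-CD3 and anti-CD28 at 1 bead per cell. RNA was measured by Smart-Seq2, which amplifies polyadenylated transcripts from few cells, and values are TPM (transcripts counted per length of the gene's transcripts and as a share of the library). The design calls the samples independent but names no separate mice or cultures, so p-values measure only the spread between these samples, which may be technical. YFP+ and YFP- cells also differ in the expression of YFP-Cre and in which X chromosome is in use. No group expresses Cre without the floxed Dock8 alleles. For every ligand, KO against WT therefore cannot tell the loss of DOCK8 from these other differences. Cd40lg is itself on the X chromosome, as Foxp3 is. The tables of the bead libraries list 31785 genes and those of the unstimulated libraries 36904. The bead comparisons therefore cannot tell the beads from any other difference between these sets of tables.

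TNF superfamily ligands are made as membrane proteins, most of them type II, that work as trimers; some are cut from the membrane, and lymphotoxin alpha is secreted. They bind trimers of TNF receptor superfamily members on neighbouring cells or on the same cell. Many of these receptors recruit TRAF adaptors and activate NF-kB, while receptors with a death domain, such as Fas, can start apoptosis. Activated T cells express several of these ligands, through which they act on B cells, dendritic cells, stromal cells and other T cells.

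Tnf, Lta and Ltb are neighbours on mouse chromosome 17, and the GRCm38 (mm10) build with GENCODE vM21 places Ltb (ENSMUSG00000024399) at chr17:35194439-35196320 on the plus strand, Tnf (ENSMUSG00000024401) at chr17:35199381-35202007 and Lta (ENSMUSG00000024402) at chr17:35203165-35205351, both on the minus strand. Tnfsf14 (ENSMUSG00000005824) is on the same chromosome at chr17:57189492-57194177 on the minus strand. The other 4 are apart from these: Tnfsf8 (ENSMUSG00000028362) at chr4:63831308-63861347, Tnfsf11 (ENSMUSG00000022015) at chr14:78277445-78308043 and Fasl (ENSMUSG00000000817) at chr1:161780689-161788495 are on the minus strand, and Cd40lg (ENSMUSG00000031132) at chrX:57212143-57224042 is on the plus strand. No annotated gene on the opposite strand overlaps any of the 8.

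The promoters of Tnf, Lta and Tnfsf11 are shown because these 3 genes rose with beads in both genotypes and had the lowest adjusted p-values of the 8 in a bead comparison. Each is the RefSeq sequence on GRCm38.p6 from 250 bases before the transcription start to 50 bases from it onward, 5′ to 3′ on the gene's own strand. The windows are chr17:35201958-35202257 (minus) for Tnf, chr17:35205302-35205601 (minus) for Lta, and chr14:78307994-78308293 (minus) for Tnfsf11. Capitals mark matches, on either strand, to an NF-kB motif (GGG and CC with any 5 bases between them), an NFAT motif (GGAAA) or an AP-1 motif (TGANTCA), named for the transcription factors that T cell receptor and CD28 signals are known to activate; matches may overlap.
Tnf: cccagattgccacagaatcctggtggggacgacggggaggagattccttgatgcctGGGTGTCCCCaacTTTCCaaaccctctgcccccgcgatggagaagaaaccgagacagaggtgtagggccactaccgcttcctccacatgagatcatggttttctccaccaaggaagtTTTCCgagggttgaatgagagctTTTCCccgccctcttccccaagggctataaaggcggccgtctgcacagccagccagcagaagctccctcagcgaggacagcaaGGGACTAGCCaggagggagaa
Lta: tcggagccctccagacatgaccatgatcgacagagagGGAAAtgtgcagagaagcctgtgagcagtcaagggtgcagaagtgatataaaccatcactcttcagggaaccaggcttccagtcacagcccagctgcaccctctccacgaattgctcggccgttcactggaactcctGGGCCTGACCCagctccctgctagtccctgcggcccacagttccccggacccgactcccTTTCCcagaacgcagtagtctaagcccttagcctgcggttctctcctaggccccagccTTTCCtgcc
Tnfsf11: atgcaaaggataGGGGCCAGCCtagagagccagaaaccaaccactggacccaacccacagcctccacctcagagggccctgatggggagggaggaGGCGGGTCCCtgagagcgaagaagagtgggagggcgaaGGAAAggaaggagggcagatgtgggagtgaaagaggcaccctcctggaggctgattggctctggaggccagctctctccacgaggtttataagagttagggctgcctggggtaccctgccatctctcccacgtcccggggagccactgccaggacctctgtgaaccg

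In the Tnf promoter the NF-kB letters stood at -194 to -185, where they read as a match on both strands, and at 30 to 39, and NFAT letters stood at -181 to -177, -77 to -73 and -54 to -50, counted from the start as 1. The Lta promoter had overlapping NF-kB matches at -76 to -67 and -75 to -66 and NFAT matches at -213 to -209, -17 to -13 and 42 to 46. That of Tnfsf11 had NF-kB matches at -238 to -229 and -155 to -146 and an NFAT match at -117 to -113. In the promoter of Ltb (chr17:35194257-35194556), which is not printed, an NF-kB match at -87 to -78 covered an NFAT match at -87 to -83, and overlapping NF-kB matches ran between -40 and -29. Across the 7 members with a RefSeq promoter (Cd40lg is named only), 6 had an NF-kB match, 7 an NFAT match and 1, Tnfsf14, an AP-1 match, at -160 to -154. Among 32851 promoters of the same length, 50.8% held the NF-kB letters, 61.3% the NFAT letters and 7.81% the AP-1 letters, so both of the commoner motifs are frequent by their letters alone. These are matches of letters, and binding was not measured.

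The targeted gene and the label of the cells were checked first. Dock8 averaged 6.86 TPM in KO and 9.25 TPM in WT libraries with beads, and 8.58 TPM in KO and 14.6 TPM in WT libraries without beads; the unstimulated difference was -0.67 on the log2 scale (adjusted p = 0.369, limma), so Dock8 transcript level did not separate the genotypes past the threshold, and the part of Dock8 that was deleted cannot be seen in a level per gene. Foxp3, the lineage factor of Treg cells, was present in every library, at 42.2 and 42.7 TPM in KO with beads, 88.6 to 106 TPM in WT with beads, 6.29 to 26.0 TPM in KO unstimulated and 29.3 to 51.6 TPM in WT unstimulated libraries. All 8 Treg markers examined, which include Tnfrsf18, a TNF receptor given later, were above 1 TPM on average in every group. That level does not set Treg cells apart. In each group 5 or 6 of 6 B cell markers and 3 to 6 of 6 CD8 T and NK markers averaged at least 1 TPM too. Unstimulated, 7 of the 8 Treg markers were lower in KO than in WT. Limma called 0 of the 8, and 5 had an unadjusted p under 0.05, as did 11.3% of all genes. Summed markers of B cells were 13.5 to 19.7 TPM in KO and 5.48 to 19.5 TPM in WT libraries with beads, and 12.3 to 33.8 TPM in KO and 11.97 to 23.5 TPM in WT libraries without. Those of CD8 T and NK cells were 18.4 to 34.9 TPM in KO and 12.3 to 18.8 TPM in WT with beads, and 24.8 to 50.1 TPM in KO and 31.2 to 58.6 TPM in WT without. Those of myeloid and dendritic cells (5 genes listed) were 2.21 to 6.46 TPM in KO and 2.33 to 5.25 TPM in WT with beads, with Tyrobp listed at 0 in both KO bead libraries, and 1.05 to 31.3 TPM in KO and 5.504 to 16.1 TPM in WT without. Those of innate lymphoid cells (3 genes) were 16.7 to 29.3 TPM in KO and 12.04 to 20.8 TPM in WT with beads, and 20.8 to 50.3 TPM in KO and 47.2 to 85.3 TPM in WT without. The part of such cells in the ligand values was not tested.

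TPM are shares of a library, and 10 repeat-derived predicted genes took 11.6% to 17.8% of TPM in KO and 7.53% to 13.4% in WT libraries with beads, against 23.6% to 45.8% in KO and 14.0% to 32.8% in WT libraries without. Over 815 abundant genes the median log2 difference was -0.42 for KO against WT unstimulated and 0.43 for beads against unstimulated in KO. Scaling the libraries to these genes moved the median of all tested genes in those comparisons from -0.11 to 0.06 and from -0.23 to -0.45. The read depth of the libraries is unknown, because TPM do not carry it. An exact 0 may be a failed estimate, since Pgk1, which every cell uses, is listed at 0 in 2 of 15 libraries; a gene at 0 is therefore called only listed at 0. Where every library of a group is given, values are given in the order of the library numbers, 4 and 5 for KO and 1 to 3 for WT with beads, and the unnumbered library, then 1 to 5 for KO and 1 to 3 for WT, without.

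Tnf encodes the founding cytokine of the family, which acts through Tnfrsf1a and Tnfrsf1b. The level of Tnf was 41.1 and 48.9 TPM in the KO bead libraries, against 0, 5.11, 0, 1.54, 0 and 3.07 TPM in the KO unstimulated libraries. In WT cells it was 40.1, 58.6 and 58.8 TPM with beads, against 2.02, 0.450, 0.392 and 1.35 TPM without. The bead libraries of both genotypes lay far above every unstimulated library, and 3 KO unstimulated libraries are listed at 0. All differences here are on the log2(TPM + 1) scale, which understates the change of low genes, and come from limma with 1 mean per group over all 15 libraries. Tnf rose with beads by 4.52 in KO (SE 0.65, adjusted p = 0.000728) and by 4.76 in WT (SE 0.61, adjusted p = 0.000423), the largest differences of the 8 genes in both. In bulk samples such a difference cannot tell more cells that express the gene from more RNA per cell.

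Lta encodes lymphotoxin alpha, the nearest relative of TNF. It reached 30.0 and 54.4 TPM in KO with beads, against a lowest of 0.943, a median of 3.16 and a highest of 11.0 TPM in KO without. In WT it reached 40.2, 171 and 76.6 TPM with beads, against 5.25, 1.30, 6.70 and 7.19 TPM without. The groups did not overlap in either genotype, but the WT bead libraries were uneven, with library 2 more than double each of the other 2 WT bead libraries. Lta rose by 3.24 in KO (SE 0.67, adjusted p = 0.00756) and by 3.90 in WT (SE 0.63, adjusted p = 0.00162).

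Ltb encodes lymphotoxin beta, which joins lymphotoxin alpha in a membrane heterotrimer that binds Ltbr and is known for organising lymphoid tissue. It was the most abundant ligand in each of the 4 groups and its range lay apart from that of the next ligand in each. Ltb stood at 326 and 345 TPM in KO with beads, against 335, 103, 164, 199, 150 and 124 TPM in KO without, where the unnumbered library held the value of 335 TPM and the other 5 were below 200 TPM. In WT it stood at 374, 368 and 370 TPM with beads, against 321, 304, 183 and 275 TPM without, so that all WT bead libraries were above all WT unstimulated ones, while the KO groups overlapped through the unnumbered library. Neither difference passed the test, at 1.01 in KO (95% interval 0.23 to 1.80, adjusted p = 0.114) and 0.48 in WT (95% interval -0.25 to 1.22, adjusted p = 0.399). Without the unnumbered KO unstimulated library the KO difference was 1.21 and passed, with an adjusted p of 0.0192.

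**Figure D1:**
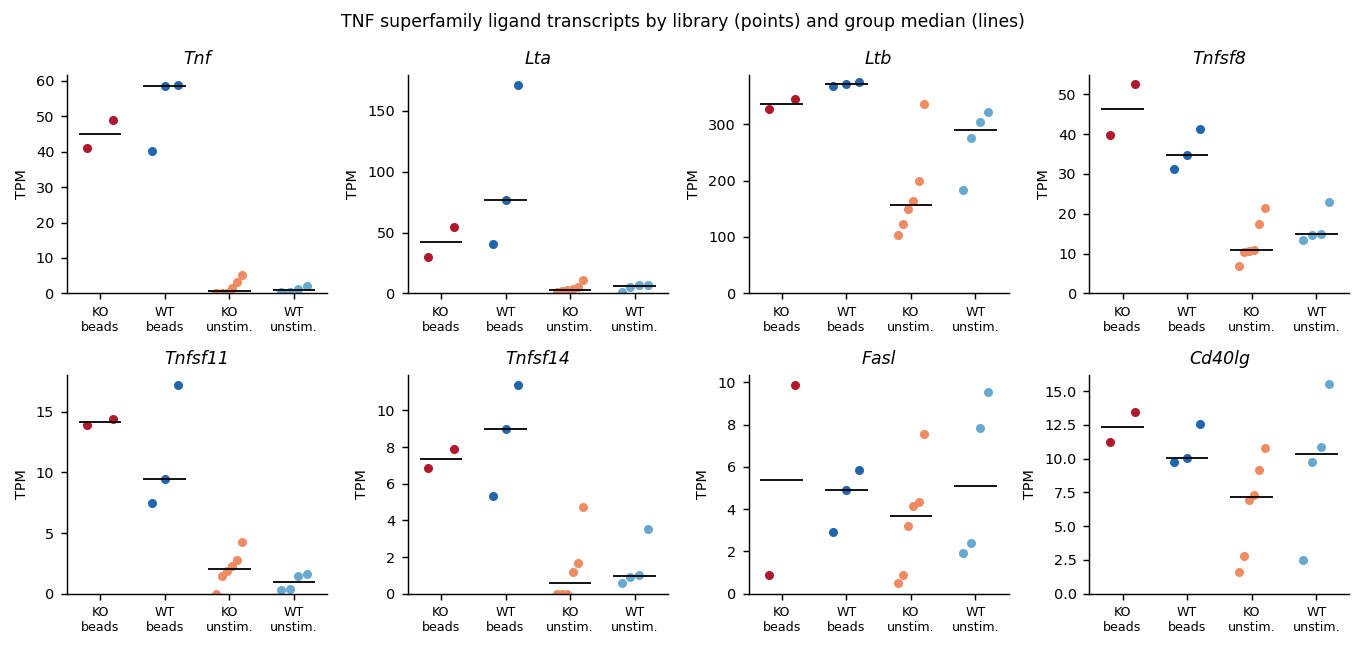
TPM of each of the 8 ligands (vertical axes, linear, each with its own scale) in the 4 groups, with 1 point per library and a line at the group median. Tnf, Lta, Tnfsf8, Tnfsf11 and Tnfsf14 lie higher with beads than without in both genotypes, while Ltb is high in every group and Fasl points are spread from 0.483 to 9.89 TPM across the groups.

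Tnfsf8 encodes CD30 ligand, which binds Tnfrsf8 (CD30) on activated lymphocytes. It was 52.7 and 39.8 TPM in KO with beads, against 17.5, 10.8, 11.0, 21.3, 6.998 and 10.4 TPM in KO without. In WT it was 31.3, 41.3 and 34.8 TPM with beads, against 14.7, 13.5, 15.02 and 23.1 TPM without. Bead libraries lay above unstimulated ones in both genotypes. The rise of 1.83 in KO passed the test (SE 0.37, adjusted p = 0.00704), and the difference of 1.09 in WT did not (SE 0.35, 95% interval 0.34 to 1.83, adjusted p = 0.0575). The difference between these responses, 0.74, had an interval of -0.35 to 1.83 and an adjusted p of 0.999, so a larger response in KO was not shown.

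Tnfsf11 encodes RANK ligand, the osteoclast differentiation factor, which also acts on dendritic cells and thymic epithelium through Tnfrsf11a (RANK). It reached 13.9 and 14.4 TPM in KO with beads, against 4.25, 2.29, 1.47, 2.75, 0 and 1.87 TPM in KO without. In WT it reached 7.52, 17.2 and 9.42 TPM with beads, against 0.312, 1.47, 1.62 and 0.409 TPM without. No unstimulated library reached the lowest bead library, and KO library 4 without beads is listed at 0. Tnfsf11 rose by 2.45 in KO (SE 0.55, adjusted p = 0.0118) and by 2.66 in WT (SE 0.51, adjusted p = 0.00445).

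Tnfsf14 encodes LIGHT, which binds Ltbr and Tnfrsf14 (HVEM). It stood at 6.83 and 7.90 TPM in KO with beads, against 0, 4.71, 0, 1.70, 1.195 and 0 TPM in KO without. In WT it stood at 5.34, 8.96 and 11.4 TPM with beads, against 0.590, 0.910, 1.01 and 3.51 TPM without. The groups did not overlap, but 1 unstimulated library of each genotype, KO library 1 and WT library 3, lay near the bead range. Tnfsf14 rose by 2.21 in KO (SE 0.64, adjusted p = 0.0455) and by 2.01 in WT (SE 0.60, adjusted p = 0.0423), both close to the threshold of 0.05.

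Fasl encodes the death ligand that engages Fas. It was 0.877 and 9.89 TPM in KO with beads, against a lowest of 0.483, a median of 3.69 and a highest of 7.55 TPM in KO without. In WT it was 5.87, 4.90 and 2.91 TPM with beads, against 2.39, 7.85, 1.92 and 9.56 TPM without. High and low libraries occurred in each group except WT with beads, and the groups overlapped throughout. The difference was 0.27 in KO (95% interval -1.33 to 1.88, adjusted p = 0.878) and -0.03 in WT (95% interval -1.53 to 1.48, adjusted p = 0.987), intervals that leave room for more than a doubling or a halving.

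Cd40lg encodes CD40 ligand, through which helper T cells license B cells and dendritic cells. It was 13.5 and 11.2 TPM in KO with beads, against a lowest of 1.64, a median of 7.13 and a highest of 10.8 TPM in KO without. In WT it was 9.77, 12.5 and 10.0 TPM with beads, against 2.52, 10.9, 9.79 and 15.5 TPM without. The KO groups lay just apart and the WT groups overlapped. Neither difference passed the test, at 1.02 in KO (95% interval -0.25 to 2.30, adjusted p = 0.357) and 0.34 in WT (95% interval -0.86 to 1.53, adjusted p = 0.744).

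Counted together, 5 of the 8 ligands were called higher with beads in KO cells, where 5.95% of all tested genes were called higher, and 4 of the 8 in WT cells, where 4.60% were; none was called lower, where 2.15% of all genes in KO and 6.63% in WT were. The 8 genes were chosen with earlier results of these data known, so these counts describe the list and do not test it. The 4 called in WT, Tnf, Lta, Tnfsf11 and Tnfsf14, were all among the 5 called in KO. The 2 bead comparisons compare different libraries, but both come from 1 fit over all 15 libraries and share its estimate of the spread. The median log2 difference over the 8 was 2.02 in KO and 1.55 in WT, against -0.23 and -0.44 over all genes tested. In KO, 6 ligands had bead libraries that were all above the unstimulated ones, as did 11.2% of all genes; in WT, 6 did, as did 8.61% of all genes. The KO calls rest on both bead libraries. Without KO bead library 4 the adjusted p was 0.0536 for Lta, 0.130 for Tnfsf8, 0.117 for Tnfsf11 and 0.233 for Tnfsf14, and without KO bead library 5 it was 0.158, 0.0737, 0.147 and 0.305 for the same genes, while Tnf stayed called in both. The Tnfsf14 call also ended without any 1 of the KO unstimulated unnumbered library and libraries 2, 4 and 5 (adjusted p = 0.0566 to 0.0727), and in WT without any 1 library other than WT unstimulated library 3 (adjusted p = 0.0697 to 0.159).

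**Figure D2:**
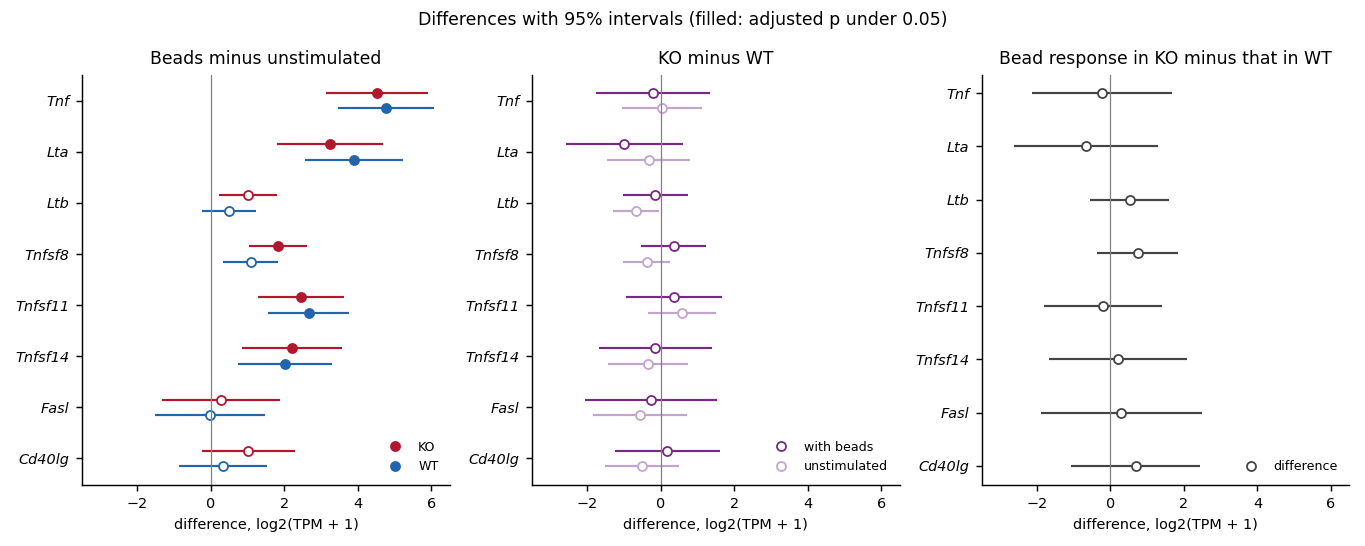
log2(TPM + 1) differences from limma (horizontal axes) with 95% intervals for each ligand, for beads minus unstimulated within each genotype, KO minus WT within each treatment, and the bead response in KO minus that in WT; filled points have an adjusted p under 0.05. Filled points occur only for beads minus unstimulated, where Tnf lies farthest from 0 at 4.52 in KO and 4.76 in WT.

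Summed over the 8 genes, ligand transcripts came to 485 and 531 TPM in KO with beads, 514 to 682 TPM in WT with beads, 141 to 383 TPM in KO unstimulated and 219 to 349 TPM in WT unstimulated libraries. Ltb made up 66.1% ± 1.67 (SD, n = 2) of this sum in KO and 63.7% ± 9.47 (SD, n = 3) in WT with beads, and 84.0% ± 6.22 (SD, n = 6) in KO and 86.7% ± 4.81 (SD, n = 4) in WT without. The remainder with beads was mostly Tnf, Lta and Tnfsf8. In KO with beads the mean levels of Tnfsf8, Tnf and Lta (46.3, 45.0 and 42.2 TPM) overlapped in range, followed at lower, separate levels by Tnfsf11, at 14.2 TPM, and Cd40lg, at 12.3 TPM, and then by Tnfsf14 and Fasl, which overlapped. In WT with beads Lta, Tnf and Tnfsf8 overlapped in the same way (96.1, 52.5 and 35.8 TPM), and below them Tnfsf11, Cd40lg, Tnfsf14 and Fasl were not separated, each overlapping the next. Without beads Tnfsf8 was second in both genotypes, at a mean of 13.0 TPM in KO and 16.6 TPM in WT, and overlapped Cd40lg, next below it.

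**Figure D3:**
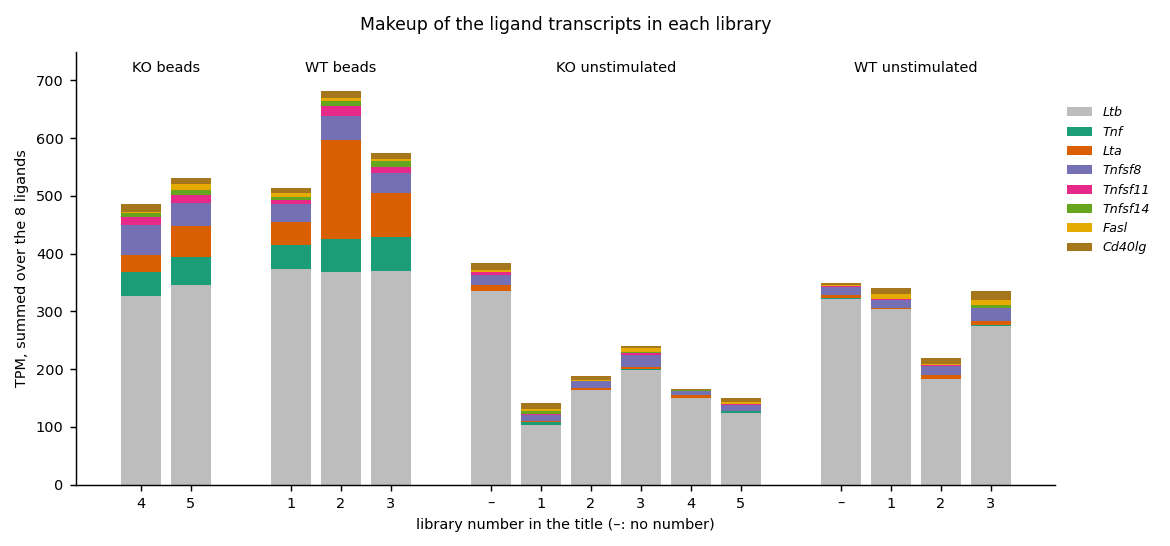
Stacked TPM of the 8 ligands (vertical axis) in each of the 15 libraries, grouped by genotype and treatment, with the number in the library's title below (a dash marks no number). Ltb fills most of every bar, and Tnf, Lta and Tnfsf8 form a visible upper part in the bead libraries, whose sums run from 485 to 682 TPM.

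The comparison of KO with WT cells concerned DOCK8, an exchange factor for the small GTPase CDC42 known for its part in the immune synapse. It also compared cells with and without YFP-Cre, so a difference could not be assigned to DOCK8 alone. Unstimulated, 0 of the 8 ligands were called by limma, where 0.0734% of all tested genes were, and 1, Ltb, had an unadjusted p under 0.05, as did 11.3% of all genes. Ltb averaged 179 ± 83.4 TPM in KO (SD, n = 6) and 271 ± 61.7 TPM in WT (SD, n = 4), a difference of -0.67 (95% interval -1.29 to -0.05, unadjusted p = 0.0360, adjusted p = 0.403). The groups overlapped, since the unnumbered KO library was above every WT library. No ligand had groups apart in this comparison, while 0.293% of all genes were higher and 1.27% lower without overlap. Tnf differed by 0.04 (95% interval -1.06 to 1.14), Lta by -0.32, Tnfsf8 by -0.38, Tnfsf11 by 0.58, Tnfsf14 by -0.35, Fasl by -0.56 and Cd40lg by -0.51, with adjusted p-values from 0.670 to 0.990. The median over the 8 was -0.37, against -0.11 over all genes and -0.42 over the 815 abundant genes.

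Of the 8 ligands, 4 were lower without overlap in the KO unstimulated libraries with the most repeat-derived TPM, as were 11.4% of all tested genes. In the 4 with more than 35% of TPM in those genes, libraries 1, 2, 4 and 5, Ltb was 103 to 164 TPM, against 199 and 335 TPM in the other 2 KO libraries. Tnfsf8 was 6.998 to 11.0 TPM in those 4 and 17.5 and 21.3 TPM in the other 2. Tnfsf11 was 0 to 2.29 TPM in those 4 and 2.75 and 4.25 TPM in the other 2, and Fasl was 0.483 to 4.16 TPM in those 4 and 4.34 and 7.55 TPM in the other 2. The values of Tnf, Lta, Tnfsf14 and Cd40lg overlapped. After scaling to the abundant genes the Ltb difference between KO and WT was -0.39 (adjusted p = 0.594), and without those 4 libraries it was -0.03 (adjusted p = 0.988). Without those 4 libraries Tnfsf8 differed by 0.24, Tnfsf11 by 1.25 and Fasl by 0.29, and none of them was called. The part of the repeat-derived share in the ligand values was not tested beyond such settings. In the unstimulated libraries below 35%, Ltb did not simply fall as this share rose. It was 335 TPM in the unnumbered KO library, at 29.5%, and 199 TPM in KO library 3, at 23.6%. In WT it was 321 TPM in the unnumbered library, at 30.4%, 275 TPM in library 3, at 14.0%, and 183 TPM in library 2, at 32.8%.

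**Figure D4:**
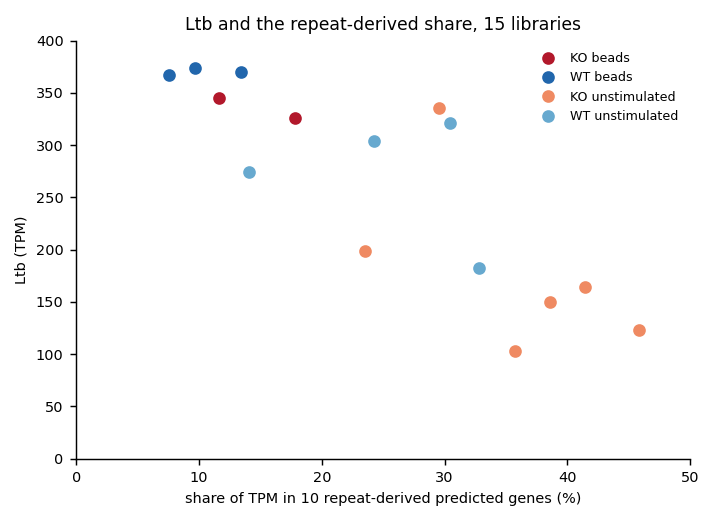
Ltb in TPM (vertical axis) against the share of TPM in 10 repeat-derived predicted genes in percent (horizontal axis), with 1 point per library coloured by group. The 4 KO unstimulated libraries above 35% have Ltb between 103 and 164 TPM, and the 5 bead libraries, all at or below 17.8%, have Ltb between 326 and 374 TPM.

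With beads, 0 of the 8 ligands were called between KO and WT by limma, where 0.00333% of all genes were, and 0 had an unadjusted p under 0.05, as did 2.89% of all genes. Lta, at 30.0 and 54.4 TPM in KO and 40.2, 171 and 76.6 TPM in WT, had the largest difference, -0.98 (95% interval -2.58 to 0.61). Ltb was the one ligand with groups apart, at 326 and 345 TPM in KO and 368 to 374 TPM in WT, a small difference of -0.14 (95% interval -1.02 to 0.73), and 8.02% of all genes were lower and 17.4% higher in this way. The other 6 differed by -0.26 for Fasl to 0.37 for Tnfsf11, and every adjusted p was 1.00. The intervals for Tnf (-1.76 to 1.35) and Tnfsf14 (-1.67 to 1.39) leave room for changes of over 2-fold, and the missed threshold does not show that the genotypes are alike. The KO bead libraries carry numbers 4 and 5 and the WT bead libraries 1 to 3, so that the 2 groups share no number, and the fit with the number as a block reaches this comparison only through the unstimulated libraries.

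The difference between the bead responses, KO minus WT, was called for 0 of the 8 by limma, where 0.00333% of all genes were, and 0 had an unadjusted p under 0.05, as did 4.16% of all genes. It was -0.24 for Tnf (95% interval -2.14 to 1.67) and -0.66 for Lta (-2.62 to 1.30). It was 0.53 for Ltb, 0.69 for Cd40lg, 0.30 for Fasl, 0.21 for Tnfsf14 and -0.21 for Tnfsf11, and the median over the 8 was 0.25, against 0.27 over all genes. This comparison shares all its libraries with the others.

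Of the 9 receptors that these ligands bind, 1 was called higher with beads in KO, and 2 were called higher and 1 lower in WT; limma called 0 between the genotypes, where 1 unstimulated (Tnfrsf1b) and 1 with beads (Tnfrsf8) had an unadjusted p under 0.05. Over all tested genes, 5.95% were called higher with beads in KO, and 4.60% higher and 6.63% lower in WT. An unadjusted p under 0.05 between the genotypes was found for 11.3% of all genes unstimulated and 2.89% with beads. Tnfrsf1b (TNFR2), a receptor for TNF and lymphotoxin alpha known for supporting Treg cells, was 81.2 and 39.9 TPM in KO with beads, against 3.06 to 14.0 TPM (median 8.83) in KO without, and 43.3, 83.03 and 58.8 TPM in WT with beads, against 14.3 to 29.4 TPM without. It rose with beads by 2.71 in KO (adjusted p = 0.00285) and by 1.61 in WT (adjusted p = 0.0317), calls that ended without KO bead library 4 (0.0930) and in WT without any 1 library other than WT unstimulated library 3 (0.0506 to 0.139) and without the repeat-derived genes (0.0653). Tnfrsf1a, the other TNF receptor, was 7.14 and 2.15 TPM in KO and 0.713 to 4.32 TPM in WT with beads, against 0 to 9.59 TPM in KO and 2.82 to 8.43 TPM in WT without, and was not called.

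Tnfrsf8 (CD30), the receptor for Tnfsf8, differed from its ligand in its pattern. It was 0.245 and 0.645 TPM in KO with beads, against 0 to 0.777 TPM in KO without, where 1 library is listed at 0. In WT it was 4.37, 13.0 and 5.31 TPM with beads, against 0.255 to 1.25 TPM without, so that the WT bead libraries were above all others. Tnfrsf8 rose with beads in WT by 2.22 (adjusted p = 0.00255) and differed by 0.11 in KO (adjusted p = 0.916), but neither KO minus WT with beads, -2.45 (SE 0.46, unadjusted p = 8.65e-05, adjusted p = 0.448), nor the difference between the responses, -2.12 (adjusted p = 0.785), passed the test over all genes.

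Tnfrsf11a (RANK), the receptor for Tnfsf11, fell with beads in WT, a difference of -1.504 (adjusted p = 0.0296), to 1.41, 3.91 and 1.23 TPM, against 5.03 to 12.9 TPM without. In KO it was 3.60 and 2.06 TPM with beads, against 4.68 to 11.0 TPM without, a difference of -0.99 that did not pass (adjusted p = 0.210). The WT call ended without any 1 of WT unstimulated libraries 1 and 2 and WT bead libraries 1 and 3 (adjusted p = 0.0629 to 0.135) and with only the groups compared (0.0670). Tnfrsf14 averaged 29.6 TPM in KO and 42.1 TPM in WT with beads, against 28.2 TPM in KO and 43.7 TPM in WT without. Fas averaged 37.8 TPM in KO and 30.9 TPM in WT with beads, against 23.2 TPM in KO and 23.9 TPM in WT without. Cd40, which B cells and dendritic cells are known to express, averaged 5.54 TPM in KO and 5.14 TPM in WT with beads, against 9.24 TPM in KO and 6.66 TPM in WT without. Tnfrsf11b, the decoy receptor of RANK ligand, did not exceed 1.41 TPM in any library. None of these 4 receptors was called in any comparison by limma. Ltbr, which lymphoid stroma rather than T cells is known to express, is listed at 0 in 9 of 15 libraries.

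**Figure D5:**
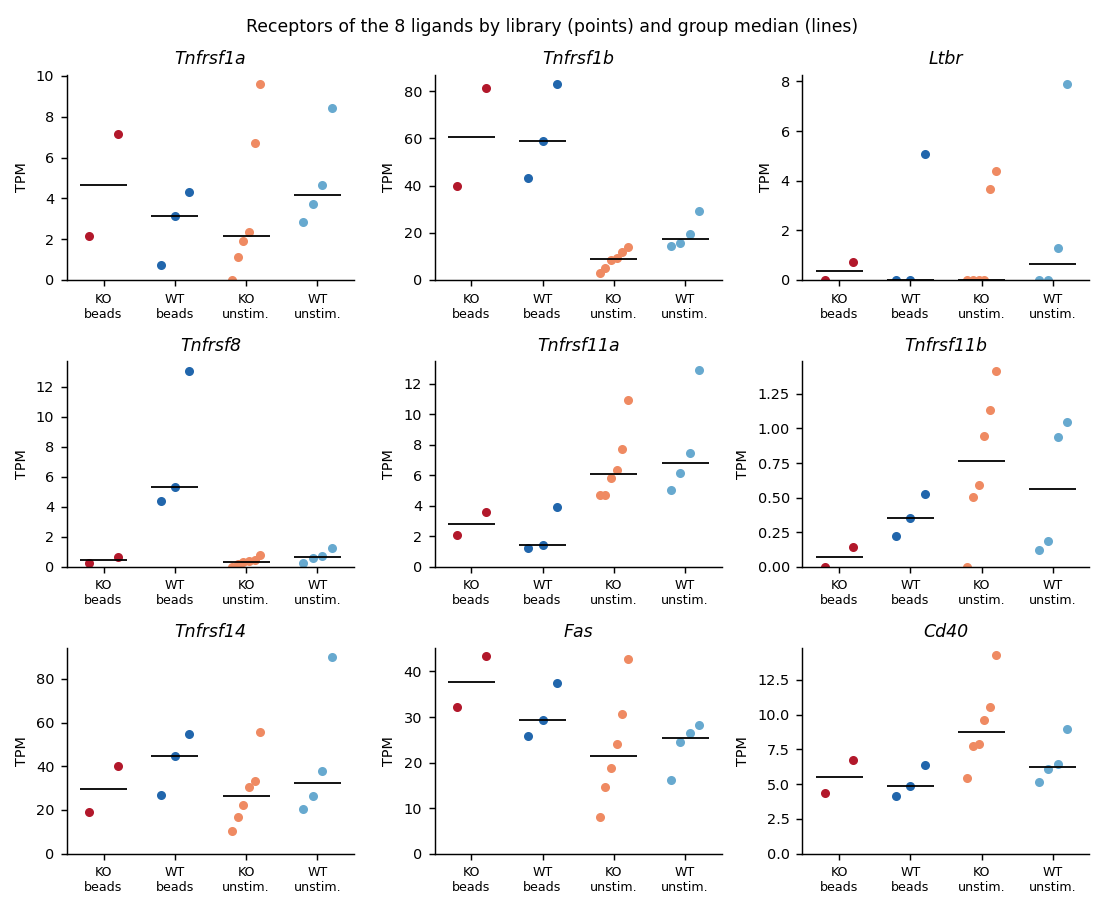
TPM of the 9 receptors of the ligands (vertical axes, linear, each with its own scale) in the 4 groups, with 1 point per library and a line at the group median. Tnfrsf1b is higher with beads in both genotypes, Tnfrsf8 reaches 4.37 to 13.0 TPM in the WT bead libraries alone, and Tnfrsf11a is lower with beads.

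Over the wider receptor family, 4 of 19 tested genes were called higher with beads in KO, and 5 higher and 1 lower in WT. The shares over all tested genes, for this and the lists below, were 5.95% higher in KO, and 4.60% higher and 6.63% lower in WT. Among those called higher in both genotypes were 3 costimulatory receptors: Tnfrsf4 (OX40) rose by 4.90 in KO and 3.61 in WT, Tnfrsf9 (4-1BB) by 3.72 and 3.79, and Tnfrsf18 (GITR) by 3.65 and 2.00, with adjusted p-values of 0.00138 or less. The costimulatory receptors Cd27 (0.18 in KO, adjusted p = 0.845, and -1.18 in WT, adjusted p = 0.0585) and Tnfrsf25 (0.94 in KO, adjusted p = 0.169, and -0.11 in WT, adjusted p = 0.883) were not called. Of the other TNF superfamily ligands, 9 were tested and limma called 0 in any comparison. An unadjusted p under 0.05 was found for 1 of them for KO against WT with beads, as for 2.89% of all genes. It was found for 0 for KO against WT unstimulated, as for 11.3% of all genes. For the difference between responses it was found for 0, as for 4.16% of all genes. Tnfsf4 (OX40 ligand) came nearest with beads, at 1.57 in WT (adjusted p = 0.0666). Tnfsf15 was lower with beads, at -1.12 in KO (adjusted p = 0.163) and -1.01 in WT (adjusted p = 0.145). Of 16 NF-kB target genes, 9 were called higher with beads in KO and 7 in WT, among them Nfkb2, at 59.5 and 52.2 TPM in KO and 32.9 to 55.5 TPM in WT with beads, against 2.87 to 9.79 TPM in KO and 4.56 to 10.3 TPM in WT without. Nfkb2 encodes the precursor of the p52 subunit of NF-kB. It rose by 2.89 in KO (adjusted p = 0.000794) and by 2.46 in WT (adjusted p = 0.00162). Nfkbia, an inhibitor of NF-kB that NF-kB itself is known to induce, rose by 2.30 in KO and 1.75 in WT, and the subunit gene Relb by 2.08 and 1.66, the Relb call in KO being lost without KO bead library 4 (adjusted p = 0.0930) and without the 4 KO unstimulated libraries above 35% repeat-derived TPM (0.0582). Nfkbid, another gene of this list, rose by 3.76 in KO and 2.61 in WT, and the adhesion gene Icam1 by 1.51 in KO and 1.69 in WT. In KO both calls ended without KO bead library 4 (adjusted p = 0.0802 for Nfkbid and 0.0722 for Icam1) or 5 (0.0512 and 0.295) and without those 4 KO unstimulated libraries (0.0624 and 0.0920). The Icam1 call in KO also ended after scaling (0.0735), with only the groups compared (0.0598) and with the title number as a block (0.0852). In WT the Nfkbid call ended without WT unstimulated library 2 or any 1 WT bead library (0.0528 to 0.0666) and without both unnumbered libraries (0.0501). With beads, 3 of the 16 were lower in WT (Tnfaip3, Birc3 and Tnip1) and 1 in KO (Tnip1), and none of these was called. Unstimulated, all 16 were lower in KO than in WT, with a median of -0.50 against -0.11 over all genes. Limma called 0 of them, and 5 had an unadjusted p under 0.05, as did 11.3% of all genes.

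Of 5 cytokines of helper T cells, 1 was called higher with beads in KO, where 5.95% of all genes were, and 3 in WT, where 4.60% were. Their sum was 31.7 and 83.5 TPM in KO and 72.7 to 254 TPM in WT with beads, against 8.68 to 19.9 TPM in KO and 2.76 to 14.5 TPM in WT without. Il2 was called in both genotypes, Il4 and Il17a in WT, and Il21 and Ifng in neither; the Il2 call in KO ended without KO bead library 5 (adjusted p = 0.267) and without the 4 KO unstimulated libraries above 35% (0.0960), and the Il17a call in WT without WT bead library 2 (adjusted p = 0.0743). Il4 was 7.11 and 4.02 TPM in KO with beads and averaged 98.9 ± 58.5 TPM in WT with beads (SD, n = 3). By limma, KO minus WT with beads was -3.79 for Il4 (unadjusted p = 0.00270) and was not called over all genes. Nor was the difference between the responses, -4.37 (limma, adjusted p = 0.999). Activated helper T cells are known to make Lta, Tnf, Tnfsf8, Tnfsf11, Tnfsf14 and Cd40lg too, and the part of such cells in the ligand values was not tested. The KO cells were sorted as YFP+, a reporter of Foxp3 that removes cells without Foxp3. The WT cells were sorted as YFP-, which does not remove them, and CD25 and CD39 were required in both. Foxp3 was higher in every WT library than in every KO library of the same treatment. In this way 1.27% of all genes were lower in KO unstimulated and 8.02% with beads. For Foxp3, KO minus WT was -1.71 unstimulated (limma, adjusted p = 0.0646), called under 2 of 20 alternatives, and -1.19 with beads, not called. The part of cells without Foxp3 in the cytokine values was not tested.

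Genes with the pattern most like each called ligand were found by the root mean square difference of centred log2(TPM + 1) values over the 15 libraries among 4432 genes, which is a description of these libraries. Closest to Tnf were Tnfrsf9 (0.759), Ccnd2 (0.769) and Nhp2 (0.781). Closest to Lta were Hist2h3c2 (0.572), Pgam1 (0.615) and Mybbp1a (0.676). Tnfsf8 had the closest match of all, Ewsr1 (0.173), then Ivns1abp (0.265) and Hnrnpdl (0.267). For Tnfsf11 they were Nfkb2 (0.502), Hmgcs1 (0.506) and Bcat1 (0.521), and for Tnfsf14 Nubp1 (0.431), Nudt5 (0.498) and Mrpl3 (0.505).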

How the data were processed

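Per the labels, the authors deposited 1 table of TPM (transcripts per 1e+06) by Ensembl gene identifier for each library. Listed values summed to 819697 to 938139 per library, and depth is unknown. The submitters' processing notes name STAR, Salmon, DESeq2 and mm10, with no roles or versions in the sources used here. Gene names and coordinates were taken from GENCODE vM21 and promoters from RefSeq on GRCm38.p6. Of the 30949 genes listed both in the unstimulated tables (36904 genes) and in the bead tables (31785 genes), 29989 reached 1 TPM in 2 or more libraries and were tested. The limma package 3.58.1 (R 4.3.3), with its trend option, fitted log2(TPM + 1) with 1 mean for each group over all 15 libraries, leaving 11 residual degrees of freedom. The 5 contrasts were adjusted by the Benjamini-Hochberg method over the tested genes, and calls needed an adjusted p under 0.05. Every p in the text is two-sided and from limma. Intervals are 95% limma intervals and ± is the SD between libraries. The fit was also run on simulated data with normal noise and equal group means, except in genes given a set difference. Such data lack the library-wide shifts seen here in repeat-derived TPM, so they cannot show how the fit behaves under those. The repeat-derived genes are 10 listed predicted genes that held much of the TPM in earlier results of these data.

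The 8 genes, the gene lists and the alternatives were chosen with earlier results of these data known. The text gives the 8 ligands, Dock8 and Foxp3, up to 4 called genes of a list in a comparison with the smallest p, and the 3 genes with the nearest profile to each called ligand, from genes whose mean reached 20 TPM in 1 or more groups. Other receptors and ligands, marker genes, cytokines and shedding enzymes named were picked after their values were seen. The alternatives were pseudocounts of 0.1 and 5, a filter of 5 TPM or none, scaling to 815 abundant genes, TPM without the repeat-derived genes, only the groups compared, a block for the number in the title, omission of the unnumbered libraries, omission of KO unstimulated libraries above 35% repeat-derived TPM, and omission of each library in turn.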

Additional observations from a re-analysis of the deposited data

Results flagged for a closer look

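In 3 of the 16 groups of 4 or 6 unstimulated libraries examined over the 8 ligands, 1 library stood apart from the rest of its group by a gap test, and chance gives about 1 in 20. Tnfsf8 was 23.06 TPM in WT unstimulated library 3, where the next highest WT library had 15.02 TPM. Tnfsf14 was 4.708 TPM in KO unstimulated library 1, where the next highest KO library had 1.70 TPM. Tnfsf14 was also 3.513 TPM in WT unstimulated library 3, where the next highest WT library had 1.01 TPM. WT unstimulated library 3 had the lowest share of repeat-derived TPM of the unstimulated libraries, 14.0%, and the part of that share in its ligand values was not tested.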

How the results depend on the processing

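Tnf was called higher with beads under all 18 alternatives in KO and all 17 in WT. Lta and Tnfsf11 were called under all 17 in WT, and under 15 and 13 of 18 in KO; Tnfsf8 was called under 15 of 18 in KO and 6 of 17 in WT, and Tnfsf14 under 5 of 18 in KO and 6 of 17 in WT. The number of ligands called with beads in KO, 5 in the main setting, was 3 with a pseudocount of 0.1, 3 with only the groups compared, 1 without the KO unstimulated libraries above 35% repeat-derived TPM, and 1 to 5 with 1 library left out; where 1 KO bead library remains, it is assumed to vary like the other groups. No ligand was called between KO and WT, or for the difference between responses, under any alternative run. The title numbers did not pair the libraries: deviations of libraries with the same number correlated at -0.0372 to 0.0549 (0.117 for the 2 unnumbered libraries), and the same number was the best match in 1 of 3, 0 of 3 and 1 of 2 pairs for the KO against WT unstimulated, WT bead and KO bead comparisons. With the number as a replicate block, 4 ligands were called with beads in KO and 3 in WT, and 0 in the other comparisons. Over all genes the calls ranged from 380 to 3148 for beads in KO (2431 in the main setting), 1650 to 4351 for beads in WT (3366), 2 to 67 for KO against WT unstimulated (22), 0 to 15 for KO against WT with beads (1) and 0 to 6 for the difference between responses (1).

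Changes of sign occurred only in values that were not called, and their cause was not tested. For KO against WT unstimulated, Tnf was -0.80 with a pseudocount of 0.1, -0.29 without the KO libraries above 35% and -0.29 to 0.25 with 1 library left out; without those KO libraries Lta was 0.22, Tnfsf8 0.24 and Fasl 0.29, while leaving out 1 library gave lowest values of -0.74, -0.53 and -0.86 for the same genes. For KO against WT with beads, the block gave 0.089 for Ltb, 0.53 for Tnfsf14 and 0.69 for Fasl, and leaving out 1 library gave -0.41 to 0.071 for Tnfsf14 and -1.53 to 1.01 for Fasl. For beads in WT, Fasl was 0.016 with a pseudocount of 0.1 and -0.33 to 0.29 with 1 library left out, and Cd40lg was -0.13 without the unnumbered libraries and -0.13 to 0.61 with 1 left out. For beads in KO, Fasl was -0.029 after scaling, -0.58 without the KO libraries above 35% and -0.997 to 1.54 with 1 left out. For the difference between responses, Tnf was 0.60 with a pseudocount of 0.1, 0.087 without the KO libraries above 35% and -0.45 to 0.085 with 1 left out, and Ltb was -0.11 without the KO libraries above 35% and 0.39 to 0.73 with 1 left out. Tnfsf11 was 0.033 with a pseudocount of 5, 0.50 with the block, 0.14 without the unnumbered libraries and, with 1 left out, -0.50 to 0.11, and -0.88 without the KO libraries above 35%. Tnfsf14 was -0.032 with a pseudocount of 5, -0.014 after scaling and -0.12 to 0.54 with 1 left out, and Fasl was -0.55 without the KO libraries above 35% and -0.97 to 1.57 with 1 left out.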

Other observations

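Several of these ligands are cut or processed at the membrane, and the proteases for this were measured too. Sppl2a, an intramembrane protease known to cut TNF and Fas ligand, was 31.0 and 26.7 TPM in KO with beads, against 7.77 to 14.4 TPM in KO without; in WT it was 16.8 to 26.8 TPM with beads, against 12.02 to 32.0 TPM without. It was the one of 5 shedding genes called, and only for beads in KO, at 1.33 (limma, adjusted p = 0.0416), where 5.95% of all genes were called higher. The call ended without either KO bead library (0.298 without library 4 and 0.225 without library 5) and without any 1 of KO unstimulated libraries 1, 2, 3 and 5 (0.0530 to 0.0659), and it also ended after scaling to the abundant genes (0.106), without the repeat-derived genes (0.0761), with only the groups compared (0.0577), with the title number as a block (0.295) and without the 4 KO unstimulated libraries above 35% repeat-derived TPM (0.183). The difference in WT was 0.06, and the difference between the responses, 1.27, had an adjusted p of 0.999. Adam10 and Adam17, the surface proteases known to shed TNF and other ligands, were not called in any comparison.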
